A study of Mus musculus with 15 samples.

Results

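The 3′UTRs of 1140 protein-coding mouse genes carried at least 10 summed cDNAs of the phosphorylation-site mutant GFP-TTP-AA after 1 h of lipopolysaccharide (LPS) and no site of wild-type GFP-TTP at that time. These genes, called members here, were chosen by both 1 h lists of crosslink sites, so their 1 h values are a description without a test. Their regions are 20990 TTP-AA sites with 25913 cDNAs, which was 34.31% of the 61183 TTP-AA 3′UTR sites at 1 h. Of the 4468 genes with a TTP-AA 3′UTR site at 1 h, 1972 reached 10 cDNAs, and the other 832 of these, which also held a TTP site, served as the comparison and are called genes bound by both. A total of 21028 genes had an annotated 3′UTR.

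Individual-nucleotide resolution crosslinking and immunoprecipitation (iCLIP) maps the nucleotides at which a protein was crosslinked to RNA by UV light, and each cDNA stands for 1 recovered RNA fragment. The cells were bone marrow-derived macrophages of C57BL/6 mice, all deficient in endogenous tristetraprolin (TTP) and immortalised with the oncogenes hcmyc and hRasG12V. They carried a doxycycline-inducible vector for GFP-TTP or for GFP-TTP-AA, in which the serines that the kinase MK2 phosphorylates are replaced by alanine, so the level of either protein depended on the vector and not on the Zfp36 promoter. All groups received doxycycline for 6 h. GFP-TTP was studied without LPS (0 h, 2 libraries), at 1 h of LPS (4 libraries) and at 4 h (2 libraries), and GFP-TTP-AA at 0 h (2 libraries), 1 h (3 libraries) and 4 h (2 libraries). The files hold 1 pooled list per group, so no value here has a replicate error, and every test compared pooled lists and not conditions. A list shows bound RNA, and a difference in cDNAs cannot be told apart from a difference in the amount of the mRNA.

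TTP binds AU-rich elements in 3′UTRs through its zinc fingers and recruits the deadenylation machinery, which shortens the poly(A) tail and leads to decay of the mRNA. In macrophages this limits the production of inflammatory mediators such as TNF. After LPS, MK2 phosphorylates TTP, which promotes its association with 14-3-3 proteins, and TTP-AA cannot be modified in this way. The core of an AU-rich element is AUUUA, and UAUUUAU is part of the longer element that the paired zinc fingers of TTP prefer.

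The windows below are selected examples of what the mutant touched and do not stand for all members. For instance, Ubl3, the member with most TTP-AA cDNAs, is not shown. Its 3′UTR holds 3 AUUUA, but the window of its strongest site holds 0. Each window has 29 nt from the transcript strand (GRCm38, which is mm10, with GENCODE M21 transcripts), the site is its middle nucleotide, position 15, and AUUUA is in capitals. The first set holds the strongest TTP-AA site of leading members in which AUUUA lay beside the site: Pdgfb (chr15:79995897-79995925, minus strand), Mcl1 (chr3:95661753-95661781, plus strand), Itgav (chr2:83804001-83804029, plus strand), Papola (chr12:105837555-105837583, plus strand) and Gtse1 (chr15:85876517-85876545, plus strand).
Pdgfb: uAUUUAuauuccguAUUUAaaguuguaaa
Mcl1: ucuuuuuuuuuuguAUUUAaagaucacag
Itgav: augaaaguuagguuuuuAUUUAuguguag
Papola: uauauauuccuuuuAUUUAuagaguuguu
Gtse1: ucuagAUUUAaauuaaauuauaaaguuua

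The second set is shown because the whole 3′UTR of these members lacked AUUUA, although the mutant was crosslinked there: Ctnnb1 (chr9:120960271-120960299, plus strand), Tlr2 (chr3:83836323-83836351, minus strand), Csk (chr9:57626954-57626982, minus strand), Gnb2 (chr5:137528157-137528185, minus strand) and Camk1 (chr6:113334154-113334182, minus strand). Csk was chosen after its values were seen.
Ctnnb1: uuaguuuccuuuuuaauaugcuuaaaaua
Tlr2: guaacauagaauuguauuauugaggauau
Csk: guguuuauuuuuuauuauuuuucaacaua
Gnb2: uauuuuaauuuuuauuauauuuucaguuu
Camk1: auacaaauguuucuauuuuauuguuccuu

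Ubl3, which encodes a membrane-anchored ubiquitin-like protein, led the members with 121 TTP-AA cDNAs at 97 sites of its 3′UTR at 1 h. Lamp2, a lysosomal membrane protein, held 118 cDNAs and Ctnnb1, which encodes β-catenin, held 113. Fam49b held 109 cDNAs and Arl8a, a small GTPase of lysosomes, held 103. The next members were Pdgfb, a chain of platelet-derived growth factor, with 98 cDNAs, the integrin subunits Itga4 with 95 and Itgav with 91, and Hnrnpa0, an hnRNP protein, and Mcl1, an anti-apoptotic member of the Bcl-2 family, with 89 each. The other 10 of the leading 20 members lay between 79 and 88 cDNAs, among them Itgam, the CD11b subunit of a myeloid integrin (85), Papola, a poly(A) polymerase (87), and Ncf1, a subunit of the phagocyte NADPH oxidase (80).

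**Figure D1:**
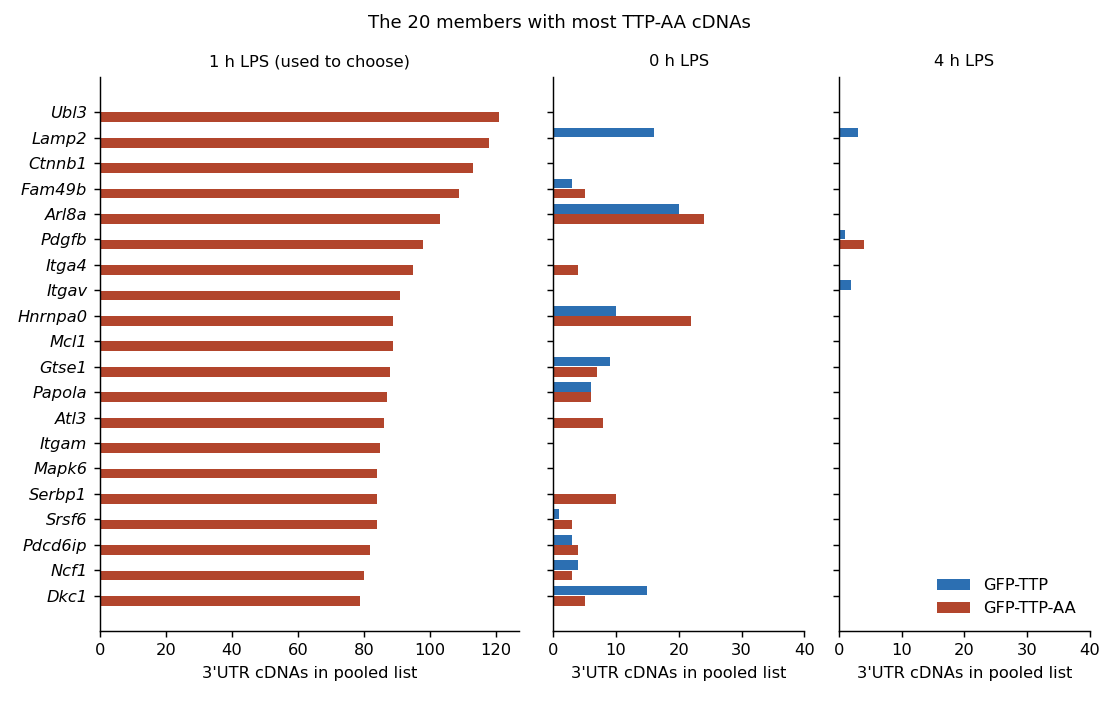
The 20 members with most TTP-AA cDNAs, with 3′UTR cDNAs of GFP-TTP (blue) and GFP-TTP-AA (red) in the pooled lists at 1 h, 0 h and 4 h of LPS (the axes at 0 h and 4 h run to 40). The 1 h panel chose the genes and holds no TTP by rule, whereas Arl8a, Lamp2 and Dkc1 carry 20, 16 and 15 TTP cDNAs at 0 h.

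Most members were thinly covered. Their 1 h cDNAs ranged from 10 to 121 with a median of 17, at a median of 15 sites per gene, and 82.8% of member sites had a single cDNA against 69.78% in genes bound by both. No member site had more than 11 cDNAs, against up to 96 in genes bound by both. At the threshold, 105 members had exactly 10 cDNAs, such as Abcb1b and Actr1a, and 116 genes had 9 cDNAs and no TTP site, such as Abhd10. A further 24 genes with at least 10 TTP-AA cDNAs missed the rule by 1 TTP cDNA, led by Grb2 with 56 TTP-AA cDNAs, Tmed5 with 53, Ranbp1 and Snrpf with 43 each, and Rac1 with 40.

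The share of genes without a TTP site fell with coverage. It was 73.58% of 897 genes with 10 to 19 TTP-AA cDNAs (Wilson 95% interval 70.6 to 76.36), 62.8% of 371 with 20 to 29, 47.92% of 361 with 30 to 49 and 21.57% of 343 with 50 or more (17.55 to 26.23). Over all 3′UTRs the 1 h lists held 9.783 TTP-AA cDNAs for each TTP cDNA. At this ratio 893 members would have held at most 3 TTP cDNAs, and the other 247 more than 3, with 12.37 for Ubl3. These counts rest on the same 1 h values and on 1 ratio for all genes. By class the ratio was 15.15 for genes with 10 to 19 TTP-AA cDNAs, 14.24 with 20 to 29, 12.91 with 30 to 49 and 8.279 with 50 or more. The lists hold only sites that passed the false-discovery threshold of the authors, so the absence of a site in members means that none passed, not that no TTP cDNA was recovered.

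**Figure D2:**
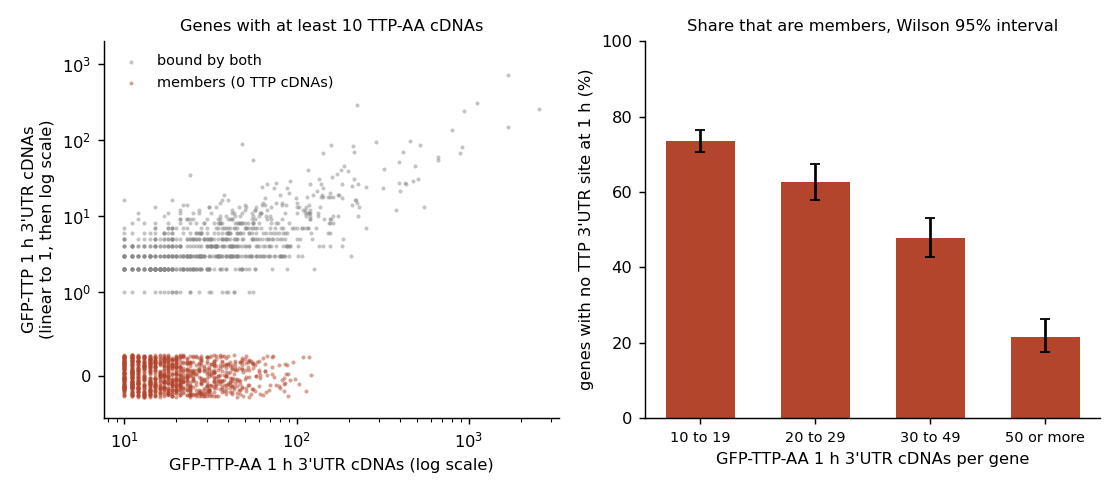
Left, GFP-TTP against GFP-TTP-AA 3′UTR cDNAs at 1 h for the 1972 genes with at least 10 TTP-AA cDNAs, with members spread vertically around 0 to make them visible. Right, the share of these genes that are members in 4 classes of TTP-AA cDNAs, with Wilson 95% intervals for counting error, which falls from 73.58% to 21.57%.

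The members spanned many functions, and their functional groups were read against the 57.81% of all 1972 genes that were members. Among cytokines, chemokines and growth factors, 6 of 19 genes with at least 10 TTP-AA cDNAs were members (31.58%), and the median over the 19 genes was 118 cDNAs. The largest of them were Pdgfb, Osm with 34 cDNAs, Il1a with 25 and Tgfb1 with 18, and the 6 include Bmp2k, a kinase picked up by its name. Among actin cytoskeleton genes, 7 of 27 were members (25.93%), led by Arpc5, a subunit of the actin-nucleating Arp2/3 complex, with 56 cDNAs and the crosslinker Actn1 with 41, and the median over the 27 genes was 55 cDNAs. The share was highest for kinases of the MAP kinase modules with 9 of 12 (75%), and the median over the 12 genes was 18.5 cDNAs. Of all genes with 10 to 19 TTP-AA cDNAs, 73.58% were members. Mapk6, an atypical MAP kinase, had 84 cDNAs, Map2k1 and Map3k20 had 28 each, and Mapk14, the p38α kinase upstream of MK2, had 23. The 9 include Mapk1ip1l, which is not a kinase. No group was tested against the others or against genes of like coverage.

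Cell cycle genes were members in 22 of 33 cases (66.67%), with a median of 20 cDNAs over the 33 genes. Of all genes with 20 to 29 TTP-AA cDNAs, 62.8% were members. Cdk1, the mitotic cyclin-dependent kinase, had 66 TTP-AA cDNAs, Ccnl1 55, Cdk2 40 and Ccng2 29. Of 20 nuclear-encoded genes of the respiratory chain, 13 were members (65%), with 46 cDNAs for Uqcrfs1 and 39 for Ndufs1. The median over these 20 genes was 20 cDNAs. The ubiquitin system had the most members, 32 of 52 (61.54%), with Usp14, a proteasome-associated deubiquitinase, at 67 cDNAs after Ubl3, and the ubiquitin ligases Rnf149 and Rnf13 at 51 and 42. Cytosolic ribosomal proteins were members in 4 of 6 cases (66.67%), each with few cDNAs, from 10 for Rpl4 and Rps3 to 18 for Rpl13a. The median over the 6 genes was 15.5 cDNAs.

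Receptors and signalling of innate immunity were also represented. Of 15 genes of the Toll-like receptor and NF-κB pathway 8 were members (53.33%). Tlr2, the receptor for bacterial lipopeptides, held 76 TTP-AA cDNAs at 48 sites in a 3′UTR of 148 nt, the NF-κB subunit Rel held 44, the LPS co-receptor Cd14 39 and the NF-κB precursor Nfkb2 17. The cytokine and growth factor receptors comprised 7 members of 11 (63.64%), and the median over the 11 genes was 22 cDNAs. They were led by Ifngr2, a chain of the interferon-γ receptor, with 29 cDNAs and the BMP-type receptor Acvr1 with 25. Catenins, cadherins and integrins comprised 6 members of 12 (50%), led by Ctnnb1, Itga4, Itgav and Itgam. The median over the 12 genes was 82.5 cDNAs, and over the 6 members it was 88.

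Regulators of RNA and of transcription followed. Of 55 mRNA-binding and splicing factors 25 were members (45.45%), among them Hnrnpa0, the splicing factor Srsf6 with 84 cDNAs, the RNA helicase Ddx21 with 72 and Larp4b with 64. Of the 13 deadenylation and decay factors 7 were members (53.85%), with Pnrc1 with 48 cDNAs, the deadenylase subunit Cnot7 with 31, the adaptor Tob1 with 23 and the decapping enzyme Dcp2 with 14 among them. Transcription factors of stress and differentiation were members in 23 of 51 cases (45.1%). Atf3 had 51 cDNAs, Atf4 and Sp1 33 each, and Egr1 32. Lysosomal and endosomal genes were members in 17 of 38 (44.74%), led by Lamp2, the protease Ctss with 72 cDNAs and the retromer subunit Vps35 with 52. Genes for apoptosis and survival were members in 5 of 13 (38.46%), with Xiap, an inhibitor of caspases, at 53 cDNAs after Mcl1 and Apaf1, which assembles the apoptosome, at 24. Over all genes of these 5 groups, in the order given, the medians were 41, 23, 29, 37 and 39 cDNAs. Of all genes with 20 to 29 TTP-AA cDNAs 62.8% were members, and of those with 30 to 49 it was 47.92%.

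Small GTPases were members in 18 of 35 cases (51.43%), where Rab14 had 74 cDNAs and Rab8b 56. Solute carriers were members in 17 of 31 (54.84%), led by Slc39a6, a zinc transporter, with 48 cDNAs. Protein phosphatases were members in 15 of 27 (55.56%), led by Ppp3r1, the regulatory subunit of calcineurin, with 48. Genes of glycolysis and lipid metabolism were members in 10 of 21 (47.62%), among them Acsl4, a long-chain acyl-CoA synthetase, with 33, and zinc-finger and BTB regulators in 6 of 11 (54.55%), led by Zfp207 with 44. In all, 257 of the 1140 members (22.54%) were on at least 1 of the 20 lists. Among cell-type markers, 7 of 9 for macrophages carried TTP-AA 3′UTR sites at 1 h, of which Itgam, Cd14 and Spi1 were members. All markers of T cells, B cells, neutrophils, fibroblasts and epithelial cells were without a site, as were the macrophage markers Fcgr1 and Mertk. Sites show bound RNA and not expression, so these counts do not establish the cell type.

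The mutant was crosslinked to AU-rich sequence in members. AUUUA lay wholly within 20 nt of 35.96% of member sites (Wilson 95% interval 35.31 to 36.61), against 7.694% of all positions of the same 3′UTRs and 6.539% of all positions of all annotated 3′UTRs. UAUUUAU lay within 20 nt of 15.25% of member sites, against 1.247% of positions, and the nonamer UUAUUUAUU within 20 nt of 3.635% against 0.248%. UGUGU, a GU-rich pentamer, was near 8.976% of sites, 1.036 times its share of positions. All motifs were searched on the transcript strand, and UAUUUAU and UUAUUUAUU contain AUUUA. Intervals cover counting error only, since the sites of 1 gene share their source.

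The crosslinked nucleotide was U at 62.79% of member sites, whereas U made up 31.26% of the bases of these 3′UTRs. The centre of AUUUA was most often found 2 nt downstream of the site, at 3.578% of sites against a mean of 0.4151% at distances of 40 to 50 nt. At that offset the site falls on the first A of the pentamer. Among all pentamers near at least 2% of member sites, UUAUU stood highest over its share of positions within 10 nt, by 6.643 times. The next was UAUUU with 6.54 times, ahead of AUUUA itself with 6.501 times.

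**Figure D3:**
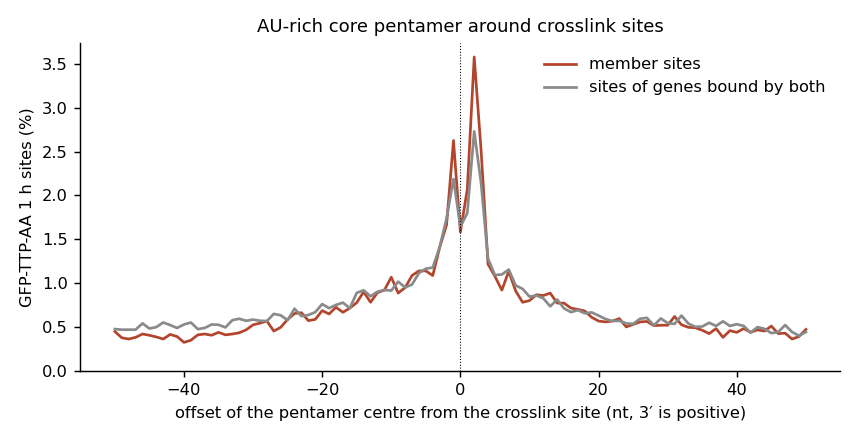
Share of GFP-TTP-AA 1 h sites at which the AU-rich core pentamer was centred at each offset from the site, for member sites (red) and sites of genes bound by both (grey). Both curves peak 2 nt downstream of the site, at 3.578% for members and 2.73% for genes bound by both.

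Whether member sites were poorer or richer in AU-rich motifs than sites of genes bound by both depended on how sites were counted. Counting each site once, AUUUA was near 2.873 percentage points more of the member sites (Newcombe 95% interval 2.037 to 3.711), since 33.08% of the sites of genes bound by both had it. Weighted by cDNAs the difference was -4.194 points, and within genes of 10 to 29 TTP-AA cDNAs it was -0.7373 points with an interval from -2.285 to 0.8006. UAUUUAU was near fewer member sites in every count made, by -0.7419 points with each site counted once and by -5.807 points weighted by cDNAs, although within 10 nt the interval of the difference included 0 (-0.6165 to 0.436).

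Individual members differed widely in this respect. Pdgfb had 25 of its 44 sites near UAUUUAU, although its 3′UTR holds this heptamer once, and 66.33% of its cDNAs fell within a stretch of 31 nt. Itga4 had 24 such sites, Suz12, a subunit of Polycomb repressive complex 2, 23, and Aff4, a scaffold of the super elongation complex, and Phlda1 22 each. At the other end, Hnrnpa0 had 4 AUUUA in its 3′UTR but none of its 41 sites lay within 20 nt of one, and Rab14 had 5 AUUUA and none of 56 sites near one. Such members numbered 183 (16.05%), against 842 (73.86%) with at least 1 site near AUUUA and 119 (10.44%) whose longest annotated 3′UTR lacked it. The last 2 groups share 4 members, whose sites near AUUUA were read on another transcript. For comparison, 9.976% of genes bound by both and 34.84% of all annotated 3′UTRs, which are shorter, lacked AUUUA.

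The AUUUA-free members had short 3′UTRs, with a median of 513 nt against 1792 nt for members with AUUUA, and together held 1770 TTP-AA sites, those of the 4 members read on another transcript included. Ctnnb1 led them with 113 cDNAs at 78 sites in 990 nt, followed by Tlr2 and by Ctss, which encodes cathepsin S, with 72 cDNAs at 51 sites in 218 nt. Csk, a kinase that inhibits Src family kinases, and Mcm4, a subunit of the replicative helicase, were next with 61 and 50 cDNAs, and both were chosen after their values were seen. Near these sites the pentamer with the highest ratio over positions was UUAUU (7.552 times, near 24.29% of sites within 10 nt). It was followed by UAUUA with 7.028 times, and UAUUU was the third with 6.982 times. These strings can be seen in the windows of Csk and Gnb2 above.

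Pooled over genes, sites concentrated towards the 3′ end of member 3′UTRs. The last 100 nt held 18.39% of member sites (Wilson 95% interval 17.88 to 18.92), where an even spread would give 9.962%, and 16.14% of the sites of genes bound by both. The last 50 nt, next to the poly(A) site, held 5.117% against 5.012% for an even spread, so the excess lay between 50 and 100 nt from the end. In 5% steps of 3′UTR length, the last step held 8.823% and the step from 45% to 50% held 3.244% of member sites. Gene by gene the picture differed, since the median member had 0% of its sites in the last 100 nt. The median gene bound by both had 2.678% there. Gnb2, Camk1, Rbm38, Atf4 and Rpl13a had all of their sites in the last 100 nt, which in Atf4 is the whole 3′UTR of 81 nt, and Pdgfb had 90.91%, whereas Itga4, Itgav, Mcl1 and Ctnnb1 had none. The median member had 50% of its cDNAs within 1 stretch of 31 nt. This share was 100% for Camk1, Mgst3, Rpl13a and Tgfb1, and 13.21% for Xiap and 15.7% for Ubl3.

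**Figure D4:**
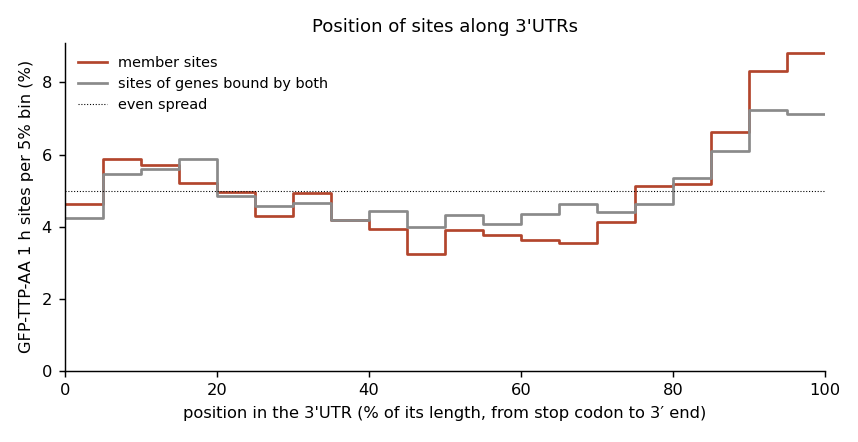
Share of GFP-TTP-AA 1 h sites in each 5% of 3′UTR length from stop codon to 3′ end for member sites (red) and sites of genes bound by both (grey). The dotted line is an even spread, and member sites rise to 8.823% in the last step.

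The lists at 0 h and 4 h were not used by the rule. Without LPS, members took 21.86% of the 4369 TTP 3′UTR cDNAs and 23.49% of the 6008 TTP-AA 3′UTR cDNAs. A TTP site was found at 0 h in 217 of the 1140 members (19.04%, Wilson 95% interval 16.86 to 21.42) and in 39.78% of genes bound by both. A TTP-AA site was found at 0 h in 276 members (24.21%, 21.81 to 26.78) and in 39.18% of genes bound by both. At 4 h the lists were small, and 24 members (2.105%) held a TTP site and 45 (3.947%) a TTP-AA site, against 9.255% and 10.94% of genes bound by both.

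Part of the gap closed within classes of TTP-AA coverage at 1 h. In the class of 10 to 19 TTP-AA cDNAs at 1 h, 18.03% of members (15.29 to 21.15) and 18.14% of genes bound by both (13.76 to 23.55) held a TTP-AA site at 0 h, and these intervals overlapped. By contrast, a TTP site at 0 h was found in 11.97% of members (9.711 to 14.67) and in 21.52% of genes bound by both (16.76 to 27.18). With 20 to 29 cDNAs the TTP shares were 26.18% and 28.26% and their intervals overlapped, and with 30 to 49 cDNAs they were 26.59% and 44.68% and the intervals did not overlap. In the same class of 30 to 49 cDNAs the TTP-AA shares were 31.21% (24.78 to 38.46) and 45.21% (38.27 to 52.35), with overlapping intervals. With 50 or more cDNAs the TTP shares were 41.89% (31.32 to 53.26) and 58.36% (52.4 to 64.1). The TTP-AA shares in this class were 48.65% (37.61 to 59.82) and 56.88% (50.9 to 62.66), and both pairs of intervals overlapped. With 20 to 29 cDNAs the TTP-AA shares were 28.76% and 32.61%, also with overlapping intervals. Members were thus lower for both proteins in the classes of 30 to 49 and of 50 or more cDNAs. Coverage was unlike in the open class of 50 or more. There the median was 62.5 TTP-AA cDNAs for members (at most 121) and 87 for genes bound by both (at most 2536). Overlap of separate intervals does not show that shares were equal, and no interval of these differences was computed.

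**Figure D5:**
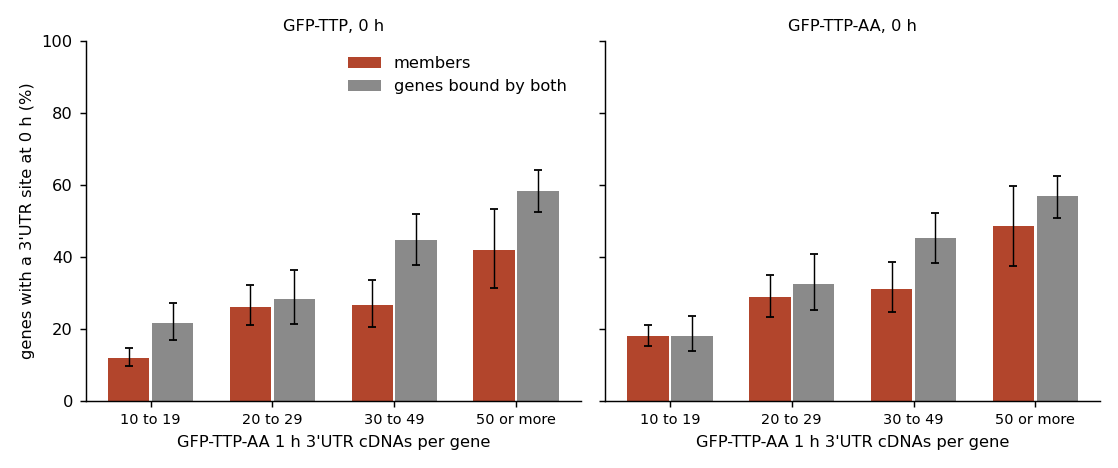
Share of members (red) and of genes bound by both (grey) with a GFP-TTP site (left) or a GFP-TTP-AA site (right) in the 3′UTR at 0 h, in 4 classes of TTP-AA cDNAs at 1 h, with Wilson 95% intervals. In the class of 10 to 19 cDNAs members lie below genes bound by both for TTP (11.97% and 21.52%) but not for TTP-AA (18.03% and 18.14%).

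Some members carried wild-type TTP at another time, a smaller share than among genes bound by both. At 0 h, 100 members held sites of both proteins, 117 of TTP alone, 176 of TTP-AA alone and 747 of neither (65.53%). Of the 832 genes bound by both, 192 held sites of both proteins, 139 of TTP alone, 134 of TTP-AA alone and 367 of neither (44.11%). Over 0 h and 4 h, 233 members (20.44%, 18.2 to 22.88) held a TTP site at some time, against 351 genes bound by both (42.19%, 38.88 to 45.57). No site in any list at 0 h or 4 h was found in 720 members (63.16%) and in 336 genes bound by both (40.38%). Most 0 h sites lay close to a 1 h site of TTP-AA in both groups of genes. Of the 820 TTP sites in members at 0 h 82.56% were within 15 nt of a TTP-AA site at 1 h, as were 88.44% of the 1211 sites that TTP-AA had at 0 h. In genes bound by both the shares were higher, at 94.43% of 2029 TTP sites and 92.94% of 2266 TTP-AA sites. These positions are compared between separate lists but within the same expressed 3′UTRs. Genes bound by both held more TTP-AA sites at 1 h, with a median of 24 per gene against 15 in members. The share of all 3′UTR positions within 15 nt of such a site was not computed, so the shares have no baseline.

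Arl8a held the most TTP cDNAs among members at 0 h. It had 20 TTP cDNAs at 17 sites, all within 15 nt of a TTP-AA site at 1 h, beside 24 TTP-AA cDNAs at 0 h, 103 at 1 h and no cDNA of either protein at 4 h. In its 3′UTR, Lamp2 had 16 TTP cDNAs and no TTP-AA cDNA at 0 h, 118 TTP-AA cDNAs and, by the rule, no TTP at 1 h, and 3 TTP cDNAs and no TTP-AA cDNA at 4 h. Dkc1, a pseudouridine synthase of box H/ACA RNPs, had 15 cDNAs of TTP and 5 of TTP-AA at 0 h and 79 TTP-AA cDNAs at 1 h, and Larp1, which binds mRNAs with a 5′ terminal oligopyrimidine motif, had 12 cDNAs of TTP and 30 of TTP-AA at 0 h and 40 TTP-AA cDNAs at 1 h. Susd6 had 12 cDNAs of TTP and 6 of TTP-AA at 0 h, and Aff4 8 TTP cDNAs at 0 h and 3 at 4 h with no TTP-AA cDNA at either time. Cdk1, Cdk4, Ccdc50 and Hnrnpa0 had 10 TTP cDNAs each at 0 h, beside 8, 19, 3 and 22 TTP-AA cDNAs, and for Hnrnpa0 3 of 8 TTP sites lay within 15 nt of a TTP-AA site at 1 h.

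For the unstimulated cells, genes with 10 or more cDNAs summed over the 0 h lists were compared between TTP-AA and TTP by a two-sided Fisher exact test on their share of all 3′UTR cDNAs, with Benjamini-Hochberg adjustment and a threshold of 0.05. Of the 241 genes tested, 17.4% were higher in TTP-AA and 13.3% were higher in TTP. Of the 60 members tested, 12 (20%) were higher in TTP-AA and 4 (6.667%) were higher in TTP, which for TTP-AA is close to the background. The median log2 ratio of shares, TTP-AA over TTP with a pseudocount of 0.5 cDNAs, was 0.15 over the 60 members and -0.06 over all genes tested. The balance turned with the minimum: with 5 cDNAs, 14 of 182 members tested favoured TTP-AA and 26 favoured TTP, beside 49 and 107 of all 570 genes tested. With sites counted once in place of cDNAs, 5 of 46 members favoured TTP-AA and 2 favoured TTP, beside 21 and 10 of all 191 genes. The turn with the minimum was thus that of all genes tested. The TTP list held fewer 3′UTR cDNAs than the TTP-AA list (4369 and 6008), so an equal count passed the threshold more easily for TTP. With 10 cDNAs against none, Picalm had adjusted p = 0.001357 for TTP and Rbm38 adjusted p = 0.02443 for TTP-AA (Fisher exact). The test compares 2 pooled lists and treats cDNAs as independent, so its p-values leave out any spread between libraries.

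The members higher in TTP-AA at 0 h included Mgst3, a microsomal glutathione transferase, with 24 TTP-AA and no TTP cDNAs (adjusted p = 4.009e-05, Fisher exact). Kpna6, an importin α, had 16 and none (adjusted p = 0.001357, Fisher exact), Camk1, a calmodulin-dependent kinase, 15 and none (adjusted p = 0.002358, Fisher exact), and Dnmt1, the maintenance DNA methyltransferase, 13 and none (adjusted p = 0.006915, Fisher exact). Tpr, a nuclear pore protein, had 12 and none, and Ncstn, a subunit of γ-secretase, 11 and none. In the other direction Lamp2 had 16 TTP and no TTP-AA cDNAs (adjusted p = 2.034e-05, Fisher exact), Picalm, a clathrin assembly protein, 10 and none (adjusted p = 0.001357, Fisher exact), Ipo7, an importin, 10 and 1 (adjusted p = 0.007498, Fisher exact), and Dkc1 15 and 5 (adjusted p = 0.02194, Fisher exact).

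The 3′UTRs of the called members differed in AUUUA. Of the 12 members higher in TTP-AA at 0 h, 6 had no AUUUA in the 3′UTR, namely Camk1, Dnmt1, Gnb2, Mgst3, Ncstn and Rbm38, whereas all 4 members higher in TTP had it. Of the 60 members tested, 11 had none. The same split over all genes called was 13 of 42 (30.95%) for TTP-AA and 2 of 32 (6.25%) for TTP, with 33 of 241 (13.69%) among all genes tested. At the level of sites, AUUUA was within 20 nt of 41.46% of the 820 TTP sites in members at 0 h (Wilson 95% interval 38.14 to 44.87) and of 35.92% of the 1211 sites of TTP-AA (33.27 to 38.66), a difference of 5.543 points (Newcombe 95% interval 1.233 to 9.859). Without the members called at 0 h it was 4.499 points, with an interval from -0.01995 to 9.02 that includes 0. UAUUUAU was near 20.73% and 14.12% of these sites. In genes bound by both, AUUUA was near 49.14% of TTP and 35.3% of TTP-AA sites at 0 h. These contrasts were chosen after the values were seen.

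At 4 h, 25 genes could be tested in the same way, and 36% of them favoured TTP-AA while 32% favoured TTP. The members' only tested gene was Gnb2, the β2 subunit of heterotrimeric G proteins, which had 21 TTP-AA and no TTP cDNAs (adjusted p = 8.316e-06, Fisher exact). At 0 h Gnb2 had 23 TTP-AA cDNAs and 5 TTP cDNAs (adjusted p = 0.03798, Fisher exact) and 41 TTP-AA and no TTP cDNAs at 1 h. The 1 h values are those that made it a member, 87.8% of those at 1 h lay in 1 stretch of 31 nt, and all of its sites were in the last 100 nt of an AUUUA-free 3′UTR of 376 nt. Among the other members with TTP-AA cDNAs at 4 h, Slc25a3, the mitochondrial phosphate carrier, had 5 and Pdgfb had 4 beside 1 TTP cDNA.

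Wild-type TTP was recovered on other regions of some members at 1 h. Of the 1140 members, 223 (19.56%, Wilson 95% interval 17.36 to 21.96) had a TTP site at 1 h in the coding sequence, 5′UTR, introns or the 1000 nt downstream, against 24.88% of genes bound by both (22.06 to 27.93). Introns accounted for 149 of these members, coding sequence for 62, 5′UTRs for 27 and downstream sequence for 5, and a member could count under several. The intronic cDNAs came mainly from few genes, chosen after their values were seen: Camk1d had 537, Kpna1 216, Tor1aip2 85 and Unc93b1 51 of 1564. Whether such intronic sites belong to the pre-mRNA of the member or to another transcript within the intron cannot be told apart from the lists.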

How the data were processed

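iCLIP was performed on GFP-TTP and GFP-TTP-AA in 15 samples that form 6 groups by their titles. The authors split reads by barcode, collapsed PCR duplicates through its random bases, mapped to mm10 with Bowtie (version not given in the sources used here), called the position before the read start the crosslink site, pooled the libraries of each group and kept sites passing a false-discovery rate of 0.05 in 100 permutations with a 15 nt neighbourhood. The deposited values are a score per site, namely its unique cDNAs as a signed whole number in which the sign marks the strand. Per the file headers, the 1 h lists carry a mark for treating regions as one that the other lists lack, so the effect of peak calling on differences between times was not tested. Lists held between 19167 and 174397 cDNAs. The 1 h lists that chose the members differed in size, with 99263 cDNAs at 25960 sites for GFP-TTP and 174397 cDNAs at 86497 sites for GFP-TTP-AA.

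Sites were assigned with Python 3.11.15, pandas 2.3.3, scipy 1.17.1 and statsmodels 0.14.6 to GENCODE release M21 on GRCm38 in the order 3′UTR, coding sequence, 5′UTR, non-coding exon and intron, and 3′UTR sites to the transcript with the longest 3′UTR. Coordinates are 1-based, and sequences are from the GENCODE transcripts. The members and functional lists, which match gene symbols by pattern, were chosen with earlier results of these data known. Named genes were the 20 members with most TTP-AA cDNAs, the 10 with most TTP cDNAs at 0 h and 4 h, the 4 leading members of each functional list, the 5 with most sites near UAUUUAU, the called members by adjusted p, and those next to the threshold. Other names are marked in the text. One gene that the rule names is not reported here. Shares carry Wilson and differences Newcombe 95% intervals, which cover counting error only. Alternatives changed the cDNA minimum, window, weighting, region rules and Fisher margins. The Fisher test was run on simulated counts deeper than the lists and without spread between libraries, so the simulation does not cover calls at the depth of the lists. Plots used matplotlib 3.10.9.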

Additional observations from a re-analysis of the deposited data

Results flagged for a closer look

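Crosslinks on the strand opposite to member 3′UTRs lay outside every comparison and are given as values because they exceeded 3 cDNAs in the TTP-AA list at 1 h. Bmp2k had 12 antisense cDNAs, Myef2 and Pfkp had 7 each, Cyfip1 had 6, Surf4 had 5, and Ccna2 and Znhit3 had 4 each. In all, 13 of the 1140 members had antisense TTP-AA sites, with 62 cDNAs, and 5 members had antisense TTP sites at 1 h, with 12 cDNAs, of which Bmp2k and Cyfip1 had 3 each.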

How the results depend on the processing

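The pooled lists hold no replicate values, so libraries could not be left out in turn. No paired analysis was possible because the replicate numbers of the samples are not kept in the pooled lists. Of 66 alternative values, 29 stayed within the interval of the reported share or difference or within 1.5 times the reported count, 35 moved and 2 reversed in sign. The alternatives for the 0 h AUUUA difference were added after seeing the data.

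The 1140 members became 1959 with at least 5 cDNAs, 480 with at least 20 and 526 when only sites with at least 2 cDNAs were kept, of which 287 were among the 1140. The share without a TTP site was then 66.36%, 44.65% and 68.05% in place of 57.81%. The AUUUA difference between members and genes bound by both reversed to -4.194 points weighted by cDNAs and to -0.7373 points with 10 to 29 cDNAs, and was 1.338 points within 50 nt and 0.9532 points at sites with at least 2 cDNAs. The UAUUUAU difference was -0.09264 points within 10 nt, -2.537 within 50 nt, -5.807 weighted by cDNAs, -1.669 at sites with at least 2 cDNAs and -2.255 with 10 to 29 cDNAs. Among members with at least 20 cDNAs, 28.75% held a TTP site at 0 h, 32.71% a TTP-AA site at 0 h and 3.125% a TTP site at 4 h.

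For the Fisher test at 0 h, counting sites once left 21 genes favouring TTP-AA (5 members) and 10 favouring TTP (2 members). With at least 5 cDNAs, 107 genes and 26 members were higher in TTP against 32 and 4 as reported, and against all cDNAs of the list 19 genes were. At 4 h, the genes higher in TTP-AA were 24 with at least 5 cDNAs, 2 of them members, and 3 by sites, where 0 members could be tested. Those higher in TTP were 4 against all cDNAs, 27 with at least 5 cDNAs and 4 by sites. Of member sites, 11.22% lay within 15 nt of a TTP-AA site at 0 h, 2.282% on its nucleotide and 16.17% within 50 nt. The share of 18.39% in the last 100 nt became 19.44% weighted by cDNAs and 24.46% on the transcript with the shortest 3′UTR, and the last 50 nt held 5.117%. The causes of these shifts were not tested.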

Other observations

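Some leading members were on none of the functional lists. Gtse1, a microtubule-binding protein of the G2 phase, had 88 TTP-AA cDNAs at 53 sites in a 3′UTR of 341 nt at 1 h, 81.13% of these sites in the last 100 nt, beside 9 TTP and 7 TTP-AA cDNAs at 0 h. Atl3, an atlastin of the endoplasmic reticulum, had 86 TTP-AA cDNAs at 1 h and 8 TTP-AA but no TTP cDNAs at 0 h. Serbp1, an mRNA-binding protein, had 84 TTP-AA cDNAs at 1 h over the longest 3′UTR among the members (13777 nt), and 10 TTP-AA but no TTP cDNAs at 0 h. Pdcd6ip, an adaptor of the ESCRT machinery, had 82 TTP-AA cDNAs at 1 h, 44 of its 62 sites near AUUUA, and 3 TTP and 4 TTP-AA cDNAs at 0 h. The 3′UTRs of members were of a median length of 1625 nt, against 1553.5 nt for genes bound by both and 960.5 nt for all annotated 3′UTRs.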
